A study of Drosophila melanogaster with 4 samples.

Results

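The genes described here are SPE, grass, psh, nec, spz, Tl, pll, cact, dl and Dif, 10 of the 16489 gene symbols in the count tables, and together they span the Drosophila Toll pathway between the serine proteases of the hemolymph and the transcription factors inside the cell. They were taken by symbol for their place in the pathway, with earlier results of these data known, and all 10 passed the filter on low counts. RNA came from adult heads of Drosophila melanogaster, with 30 heads in each library. In 2 libraries the driver GMR-Gal4 expressed yki S168A, a form of the transcriptional co-activator Yorkie that lacks a serine through which the Hippo pathway restrains it; the series calls these heads tumor tissue. In the other 2 libraries, the controls, the labels give GMR-Gal4 alone, so the driver is shared by both groups. GMR-Gal4 acts mainly in the developing eye, whereas a head also holds brain, glia, fat body, blood cells, muscle and cuticle. The labels give neither the sex nor the exact age of the flies.

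Toll signaling is a main arm of the fly's humoral immune response, and fat body and blood cells produce much of its secreted machinery. Sensors of bacterial or fungal wall molecules, or microbial proteases acting on a protease bait, start a chain of serine proteases in the hemolymph that ends in cleavage of the precursor of Spätzle. Cleaved Spätzle binds the receptor Toll, adaptors and the kinase Pelle then bring about the loss of the inhibitor Cactus, and the NF-kappaB factors Dorsal and Dif enter the nucleus. The pathway was first described in the patterning of the embryo, and its chief output in adult flies is a set of secreted immune peptides.

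The libraries held 17311383 and 18108814 counts in the yki S168A group, against 16817968 and 15738860 in the control group. Separate crosses or cultures for the 2 libraries of a group are not mentioned in the labels, and the p-values therefore reflect spread among these 4 samples alone, spread that may be technical. Levels are given as CPM, counts per 1e6 counts of the library after TMM scaling of the library totals. The yki gene was at 32.2 and 27.2 CPM in yki S168A heads, against 12.4 and 18.4 CPM in control heads (edgeR adjusted p = 0.0112). The call was lost without control replicate 1, where the log2 fold change was 0.69, against 0.95 with all 4 libraries. Transgene reads cannot be told apart from those of the endogenous locus. Effects of Yorkie activity, of the inserted transgene and of stock background cannot be told apart either. The gene w, checked alongside yki, was at 60.0 and 50.2 CPM in yki S168A heads, against 6.11 and 6.14 CPM in control heads (edgeR adjusted p = 1.33e-06). The source of that difference was not tested. Head identity was visible in both groups, since all 13 photoreceptor markers were detected, with 12 of them lower in yki S168A heads and a summed level of 3855 and 4121 CPM there, against 12190.2 and 11848 CPM in control heads.

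Of the 10 genes, 7 rose in yki S168A heads, 0 fell, and 3 did not pass; the test was edgeR's quasi-likelihood test, with a threshold of 0.05 on the adjusted p. At an unadjusted p below 0.05 the count of lower genes was also 0, and it was 0 by DESeq2 and by limma-voom. Over all 10896 genes tested, 27.6% were called in either direction, 15.1% higher and 12.5% lower. The median log2 fold change of the 10 genes was 0.96, beside 0.01 over all tested genes. Because the 10 were chosen with earlier results of these data known, the comparisons with all genes describe them and test nothing. A rise of more than 2-fold was called for 4 of the 10 genes (grass, SPE, dl and nec), beside 8.14% of the tested genes. Both yki S168A libraries lay above both control libraries for 8 of the 10 genes, beside 32.1% of the tested genes. Each control library weighs heavily on the count over all genes, which was 3006 with 4 libraries, 1634 (14.5%) without control replicate 1 and 1696 (15.01%) without control replicate 2. The corresponding counts among the 10 genes were 6 and 5. Of all calls 54.8% were higher; with upper-quartile scaling 39.9% were (1276 higher, 1924 lower), and the median over all tested genes moved to −0.15 and that of the 10 genes to 0.80, so that the distance between the medians was 0.95 under both scalings.

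**Figure D1:**
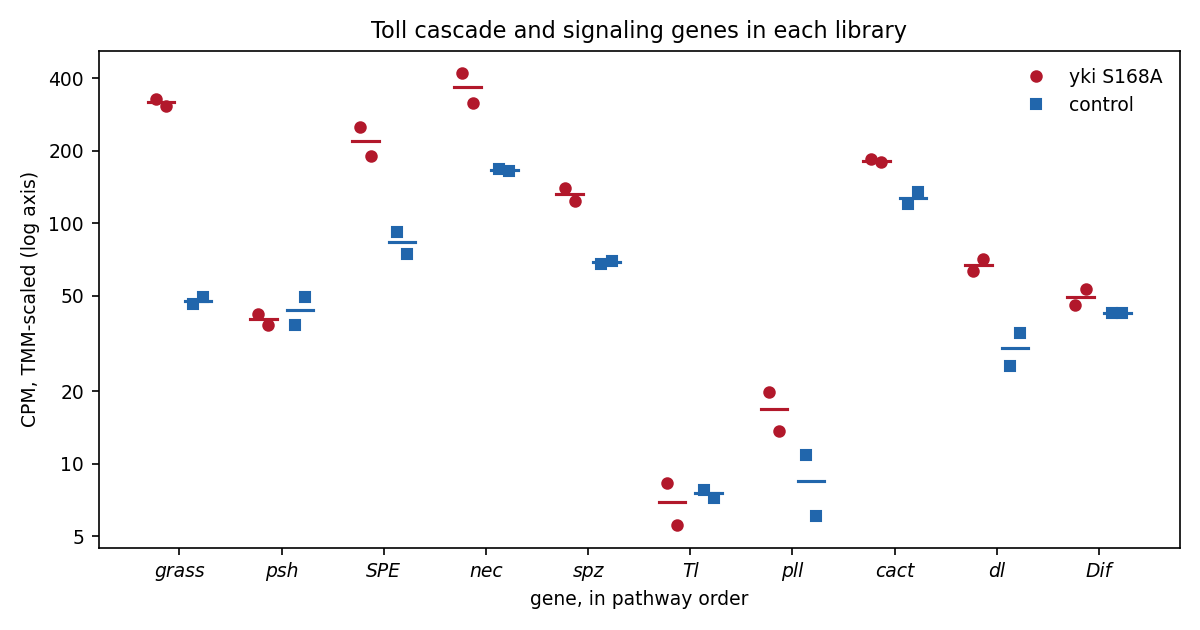
TMM-scaled CPM (log axis) of each gene in each library, with genes in pathway order; circles are yki S168A libraries, squares control libraries, and short lines the means of 2. The groups are far apart for grass, at 328 and 306 CPM in yki S168A heads against 46.0 and 49.2 CPM in control heads, and overlap for psh and Tl.

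The protease gene grass showed the largest change of the 10. It encodes a serine protease with a clip domain that relays the signal of the wall-molecule sensors. The gene (FBgn0039494) lies on chromosome 3R at 27157948 to 27159781, plus strand, build dm6. Its level was 328 and 306 CPM in yki S168A libraries and 46.0 and 49.2 CPM in control libraries. The groups were widely separated, and replicates of each group lay within 1.07-fold of each other. The means were 317 ± 15.9 CPM in yki S168A heads and 47.6 ± 2.30 CPM in control heads (SD, n = 2 each), a 6.66-fold rise (95% interval 5.31 to 8.34, log2 fold change 2.73 ± 0.15 SE, adjusted p = 3.34e-07). Of all tested genes, 98.4% had a lower log2 fold change than grass.

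The gene psh encodes persephone, a protease that is itself cut by proteases of invading microbes and so serves as a danger sensor in a parallel branch. It lies on chromosome X at 18484487 to 18486921, minus strand (FBgn0030926). Levels were 42.0 and 37.8 CPM in yki S168A heads and 37.7 and 49.2 CPM in control heads. The groups overlapped, with control replicate 2 the highest and control replicate 1 the lowest of the 4. The log2 fold change was −0.12 (95% interval −0.52 to 0.28, adjusted p = 0.671), which reaches 1.21-fold upward and to 0.696 of the control level downward.

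SPE, the Spätzle-processing enzyme on which both branches converge, was at 249.9 and 189 CPM in yki S168A heads, against 92.0 and 74.5 CPM in control heads. The lowest yki S168A library stood well above the highest control library, although the yki S168A libraries differed 1.32-fold between themselves. Means of 219 ± 43.0 CPM in yki S168A heads and 83.3 ± 12.4 CPM in control heads (SD, n = 2 each) gave a 2.63-fold rise (log2 fold change 1.40 ± 0.18 SE, adjusted p = 0.000147). SPE (FBgn0039102) lies on chromosome 3R at 23686255 to 23688147, plus strand, and shares 8.45% of its exonic bases with CG18754 on the same strand.

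The serpin gene nec encodes Necrotic, an inhibitor that restrains the protease cascade, best known from flies lacking it, in which Toll is active without infection. Its level was 418 and 316 CPM in yki S168A heads and 167 and 164 CPM in control heads. Here too the groups were apart, with yki S168A replicate 1 the highest. The rise was 2.21-fold (means 367 ± 72.7 CPM in yki S168A heads and 166 ± 2.02 CPM in control heads, SD, n = 2 each, adjusted p = 0.000363). The gene (FBgn0002930) lies on chromosome 2R at 7156477 to 7158241, minus strand.

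The ligand gene spz (FBgn0003495, chromosome 3R, 27064990 to 27070070, minus strand) was at 139.7 and 124 CPM in yki S168A heads, against 67.6 and 69.7 CPM in control heads. Both yki S168A libraries were higher than both control libraries, and the spread within each group was small beside the distance between them. The rise was 1.92-fold (95% interval 1.54 to 2.39, log2 fold change 0.94 ± 0.14 SE, adjusted p = 0.000662).

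The genes from the hemolymph end of the pathway had 4 of 5 members higher, with log2 fold changes between −0.12 and 2.73 and a median of 1.15. Among the receptor and the genes inside the cell 3 of 5 were higher, with log2 fold changes between −0.12 and 1.16 and a median of 0.51. Over all tested genes 15.1% were called higher, and no test compared these 5 with the other 5. Calls for grass, SPE, nec, spz and dl held in all 13 alternative fits, which included leaving out each library.

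**Figure D2:**
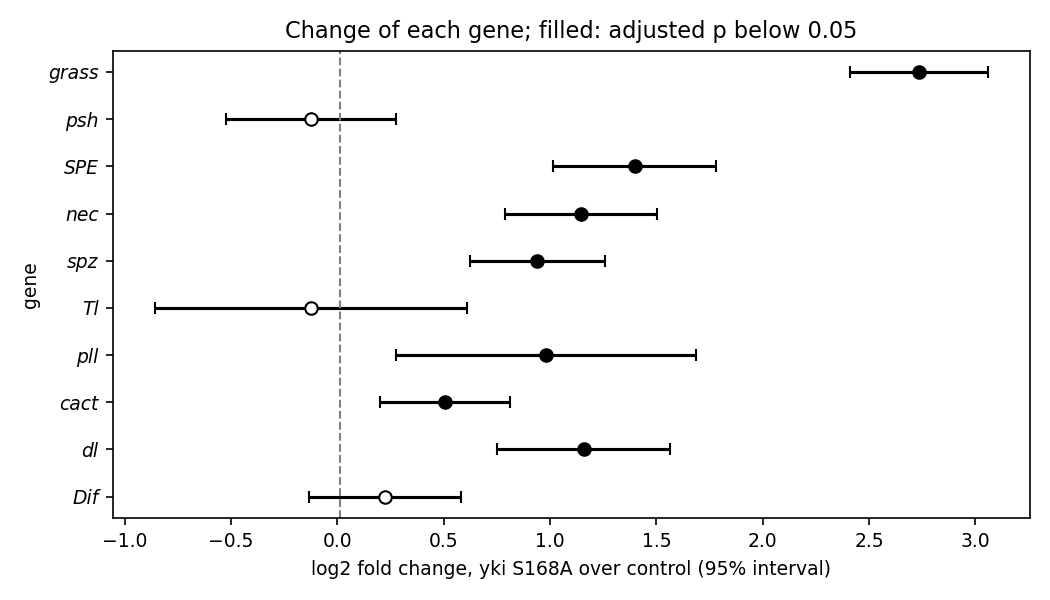
Log2 fold change of each gene, yki S168A over control, with its 95% interval; filled points passed an adjusted p below 0.05, and the dashed line marks the median of all tested genes at 0.01. The interval of grass starts at 2.41, above the upper ends of the other 9, and the intervals of psh, Tl and Dif include 0.

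The receptor gene Tl (FBgn0262473, chromosome 3R, 26799041 to 26842403, plus strand) had few reads, with 137 and 98 counts in yki S168A libraries and 137 and 118 in control libraries. In CPM these were 8.32 and 5.56 in yki S168A heads and 7.82 and 7.24 in control heads. Control values lay between the yki S168A values, so the groups overlapped. The log2 fold change was −0.12 (95% interval −0.86 to 0.61, adjusted p = 0.827), so a change within 0.551 to 1.53 of the control level was not resolved at this depth. Counting error alone was 8.54% to 10.1% of each value.

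The kinase gene pll, for Pelle, the kinase that acts just below the receptor complex, had 19.97 and 13.7 CPM in yki S168A heads, against 10.9 and 6.08 CPM in control heads. The groups did not overlap, but each was wide, with a 1.46-fold distance between the yki S168A libraries and a 1.79-fold distance between the control libraries. The log2 fold change of 0.98 ± 0.32 (SE) passed narrowly (adjusted p = 0.042). This call was lost without control replicate 2 (0.63, adjusted p = 0.285), without yki S168A replicate 1 (0.68, adjusted p = 0.196), with upper-quartile scaling (adjusted p = 0.0795) and with no filter on low counts (adjusted p = 0.0556). The gene (FBgn0010441) lies on chromosome 3R at 27251131 to 27253182, minus strand, with 1.61% of its exonic bases opposite TfIIA-L.

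The inhibitor gene cact, for Cactus, the fly counterpart of IkappaB and a gene that Toll signaling itself induces in adult flies, was at 184 and 179 CPM in yki S168A heads and at 120.4 and 135 CPM in control heads. Both yki S168A values were above both control values. The rise was 1.42-fold (log2 fold change 0.51 ± 0.14 SE, adjusted p = 0.0194), the smallest of the 7. It did not pass without control replicate 1 (adjusted p = 0.259), without control replicate 2 (adjusted p = 0.104) or with upper-quartile scaling (adjusted p = 0.0831). The gene (FBgn0000250) lies on chromosome 2L at 16313036 to 16326207, minus strand, and 1.87% of its exonic bases lie opposite fzy.

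The NF-kappaB gene dl, for Dorsal, the factor that patterns the embryo and also takes part in immunity, had 63.4 and 71.1 CPM in yki S168A heads, against 25.5 and 34.9 CPM in control heads. The groups were apart by more than the distance between replicates. Dorsal's gene rose 2.23-fold (log2 fold change 1.16 ± 0.19 SE, adjusted p = 0.000881). Its neighbor Dif, which encodes the factor that carries most of the adult humoral Toll response, had 45.7 and 53.0 CPM in yki S168A heads, against 42.4 and 42.2 CPM in control heads. Both yki S168A values for Dif were above the control values, by little, and the difference did not pass (log2 fold change 0.22, 95% interval −0.13 to 0.58, adjusted p = 0.347). The genes are paralogs that lie in the same orientation on the minus strand of chromosome 2L, Dif (FBgn0011274) at 17413248 to 17433161 and dl (FBgn0260632) at 17436830 to 17450364, with a gap of 3668 bases. Of the exonic bases of Dif, 4.42% lie opposite CG15141, and 0% of those of dl overlap another gene.

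Levels of different genes were compared as CPM per kilobase of exonic length. In yki S168A heads grass (228 ± 11.4) and nec (225 ± 44.5) led, and these did not differ beyond their spread. SPE followed at 173 ± 33.9, and its libraries overlapped those of nec. Then came spz (55.8 ± 4.71) and cact (54.5 ± 1.12), which did not differ beyond their spread either, and psh (24.3 ± 1.81). The lowest were dl (10.5 ± 0.849), pll (8.71 ± 2.31), Dif (8.67 ± 0.905) and Tl (1.33 ± 0.375, SD, n = 2), and pll was not separated from dl or Dif beyond its spread. In control heads nec led at 101 ± 1.23, and SPE (65.7 ± 9.76), cact (38.4 ± 3.02), grass (34.2 ± 1.65), spz (29.0 ± 0.647), psh (26.4 ± 4.96), Dif (7.42 ± 0.0259), dl (4.69 ± 1.03), pll (4.38 ± 1.75) and Tl (1.45 ± 0.0791) followed, with spz and psh, and dl and pll, not separated beyond their spread. Thus grass ranked 1 among the 10 in yki S168A heads and 4 in control heads, and Tl stood last in both.

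Ratios between genes within a library do not depend on how libraries are scaled, and they were taken on counts per kilobase of exon. The ratios among cact, dl and Dif were planned, though with earlier results of these data known. The other ratios were chosen after the values were seen. With 2 libraries against 2 an exact two-sided permutation test cannot go below p = 0.33, so the ratios are given as values. There were 9.24 and 9.56 units of grass to 1 of psh in yki S168A heads, against 1.44 and 1.18 in control heads. Grass to SPE stood at 1.20 and 1.47 in yki S168A heads, against 0.455 and 0.602 in control heads. The serpin nec to the sum of grass, psh and SPE stood at 0.559 and 0.493 in yki S168A heads, against 0.796 and 0.811 in control heads. That sum rose with grass and SPE. Grass was at 235.8 and 219.7 CPM per kilobase in yki S168A heads, against 33.1 and 35.4 in control heads. SPE was at 197 and 149 in yki S168A heads, against 72.6 and 58.8 in control heads. The remaining term, psh, was at 25.5 and 23.0 in yki S168A heads against 22.9 and 29.9 in control heads.

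Inside the cell, Dif to dl was 0.815 and 0.842 in yki S168A heads, against 1.88 and 1.37 in control heads, so that Dif was the more abundant of the pair per kilobase in both control libraries and dl in both yki S168A libraries. The ratio of cact to the sum of dl and Dif was 3.09 and 2.64 in yki S168A heads, against 3.18 and 3.16 in control heads. The means of 2.86 ± 0.321 in yki S168A heads and 3.17 ± 0.0136 in control heads (SD, n = 2 each) differed by less than the spread between the yki S168A libraries.

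**Figure D3:**
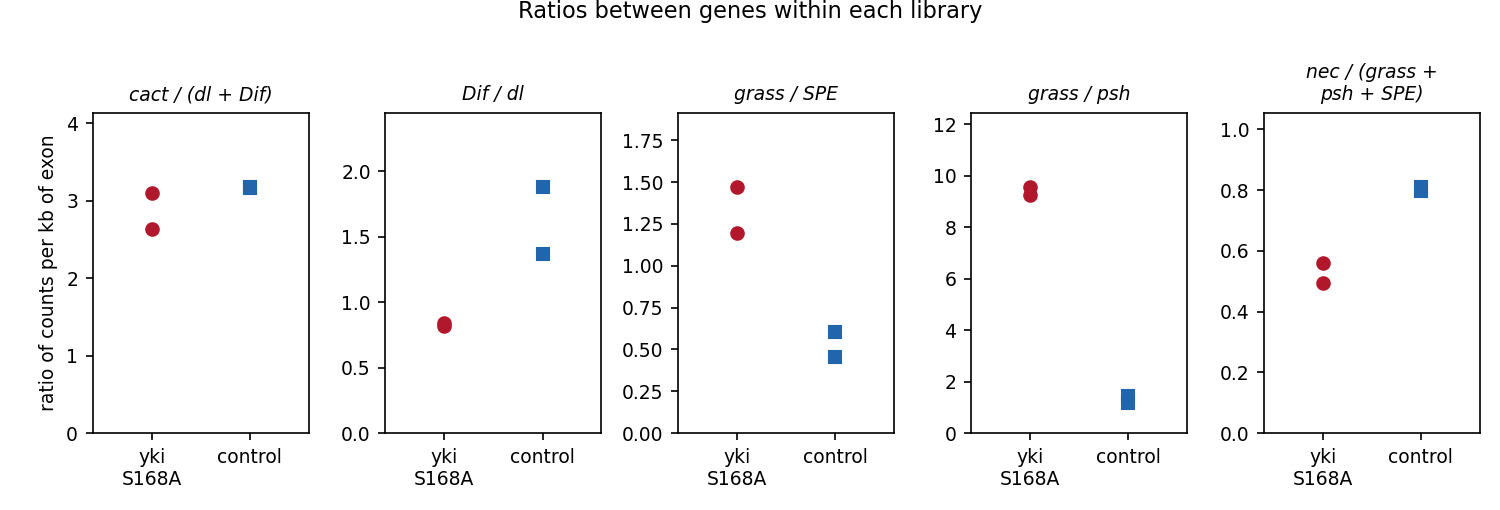
Ratio of counts per kilobase of exon between the named genes in each library, with yki S168A left of control and each axis starting at 0. Dif to dl is 0.815 and 0.842 in yki S168A heads and 1.88 and 1.37 in control heads, whereas cact to dl plus Dif lies between 2.64 and 3.18 in all 4 libraries.

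The rest of the pathway was read from lists of genes at each step. The list counts stand beside 15.1% of all tested genes called higher and 12.5% called lower. At the entry, 1 of 5 sensor and entry genes was higher and 0 were lower (median log2 fold change 0.52). The higher gene was PGRP-SA, which encodes the circulating sensor of lysine-type peptidoglycan upstream of grass. PGRP-SA was at 878 and 503 CPM in yki S168A heads, against 23.8 and 25.04 CPM in control heads, a 28.3-fold rise (log2 fold change 4.82 ± 0.26 SE, adjusted p = 3.43e-07). The gene modSP, for the modular protease between the sensors and grass, was at 37.9 and 32.3 CPM in yki S168A heads against 23.5 and 25.3 CPM in control heads and missed the threshold (adjusted p = 0.0557, between 0.0314 and 0.3 over 13 alternatives). GNBP1, whose product acts with PGRP-SA, had 7.89 and 9.82 CPM in yki S168A heads and 4.91 and 5.34 CPM in control heads (adjusted p = 0.099).

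Among other proteases and protease homologs near the cascade, 12 were matched, 7 were tested, 2 were higher and 0 lower (median 0.41). Ser7 rose 10.2-fold, with 806 and 672 CPM in yki S168A heads against 73.0 and 72.6 CPM in control heads (adjusted p = 1.62e-07). Sp7, a clip-domain protease of the melanization response, rose 2.70-fold, with 134 and 98.6 CPM in yki S168A heads against 43.5 and 42.8 CPM in control heads (adjusted p = 0.000123). Hayan, the paralog next to psh, had 69.8 and 43.1 CPM in yki S168A heads and 43.0 and 41.6 CPM in control heads (adjusted p = 0.18); it passed without yki S168A replicate 2 (0.72, adjusted p = 0.0064). An antisense gene covers 36.2% of the exonic bases of Hayan, and the strand setting of the counting is unknown here. The embryonic proteases gd and snk had at most 8 counts in any library, and the homologs sphinx2 and spheroide had 0 in all 4.

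Serpin genes other than nec numbered 27, of which 15 were tested, 8 were higher and 1 was lower, with a median log2 fold change of 1.16. Spn47C rose 9.53-fold (494 and 461 CPM in yki S168A heads, 54.9 and 45.2 CPM in control heads, adjusted p = 1.77e-07). Spn27A, whose product restrains melanization and the embryonic Toll cascade, rose 4.66-fold (528 and 453 CPM in yki S168A heads, 115 and 95.4 CPM in control heads, adjusted p = 2.41e-06). Spn77Ba, a serpin that restrains melanization in the trachea, rose 2.77-fold (adjusted p = 3.31e-05). The lower gene was Spn85F, with 0 and 2 counts in yki S168A libraries and 29 and 11 in control libraries (adjusted p = 0.0328). Its log2 fold change ran from −7.32 to −3.30 as libraries were left out, and it had too few counts to be tested without control replicate 1. It did not pass when control replicate 2 (adjusted p = 0.0759), yki S168A replicate 1 (0.151) or yki S168A replicate 2 (0.0789) was left out, or with no filter on low counts (0.0739).

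Of 5 other ligand genes of the Spätzle family 3 were tested, and 1 was higher. It was spz3, with 21.8 and 24.5 CPM in yki S168A heads and 9.19 and 8.04 CPM in control heads (2.68-fold, adjusted p = 0.00108). Counts of spz5 and spz4 were low, and neither passed (adjusted p = 0.512 and 0.917). Of 8 other Toll receptor genes 4 were tested; Tollo was higher (3.73-fold, 119.96 and 97.9 CPM in yki S168A heads, 33.5 and 24.8 CPM in control heads, adjusted p = 2.36e-05). The median of these 4 was −0.51: Toll-7 (log2 fold change −0.58, adjusted p = 0.119) and Toll-6 (−0.48, adjusted p = 0.133) had values below 0 and passed as lower with upper-quartile scaling (adjusted p = 0.0488 and 0.0492). Of the fits that left out 1 library, Toll-6 passed as lower without yki S168A replicate 2 (adjusted p = 0.021).

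Of 11 genes for adaptors and regulators inside the cell, 2 were higher, near the 15.1% of all tested genes, and 0 were lower. The log2 fold changes of the 11 lay on both sides of 0, between −0.64 and 0.62, around a median of −0.04. Myd88, the adaptor that binds the receptor, was at 105 and 94.4 CPM in yki S168A heads and at 68.7 and 69.7 CPM in control heads (1.44-fold, adjusted p = 0.0193). The gene mop, whose product acts in endosomes on Toll signaling, was at 35.1 and 35.2 CPM in yki S168A heads and at 22.7 and 23.0 CPM in control heads (1.54-fold, adjusted p = 0.0233). Both calls were lost without control replicate 1 (adjusted p = 0.167 for Myd88 and 0.159 for mop), without control replicate 2 (0.145 and 0.144) and with upper-quartile scaling (0.0789 and 0.0739). Pli, the Pellino gene, had a log2 fold change of −0.64 (adjusted p = 0.0636) and passed as lower with upper-quartile scaling (adjusted p = 0.0245) and when genes averaging under 10 CPM were dropped (adjusted p = 0.0378). The adaptor gene tub, whose product links Myd88 to Pelle, was not called (−0.04, adjusted p = 0.92); it is named outside the rule for named genes, for its place beside pll.

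In the Imd pathway, the other NF-kappaB arm of fly immunity, 5 of 16 tested genes were higher and 0 lower (median 0.41). The NF-kappaB gene Rel rose 2.93-fold (114 and 90.5 CPM in yki S168A heads, 34.4 and 35.4 CPM in control heads, adjusted p = 4.38e-05), the receptor gene PGRP-LC 2.35-fold (adjusted p = 0.000786) and PGRP-LB, for an amidase that degrades peptidoglycan and dampens Imd signaling, 12.1-fold (adjusted p = 5.17e-07). At the output end, 16 of 17 genes for secreted Toll effectors were higher and 0 lower, with a median of 2.23. Of these IM23 was at 1588 and 1584 CPM in yki S168A heads against 31.9 and 26.6 CPM in control heads. IM1 rose 25.6-fold and CG33470 11.1-fold, and CG15068 did not pass (log2 fold change 0.06, edgeR adjusted p = 0.876). Of the exonic bases of CG33470, 23.5% lie opposite CG30059. Where a list had 0 lower calls, the number lower at an unadjusted p below 0.05 was 1 among the other receptors, 1 among the adaptors and 0 in the others, and DESeq2 and limma-voom gave 0 in each.

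**Figure D4:**
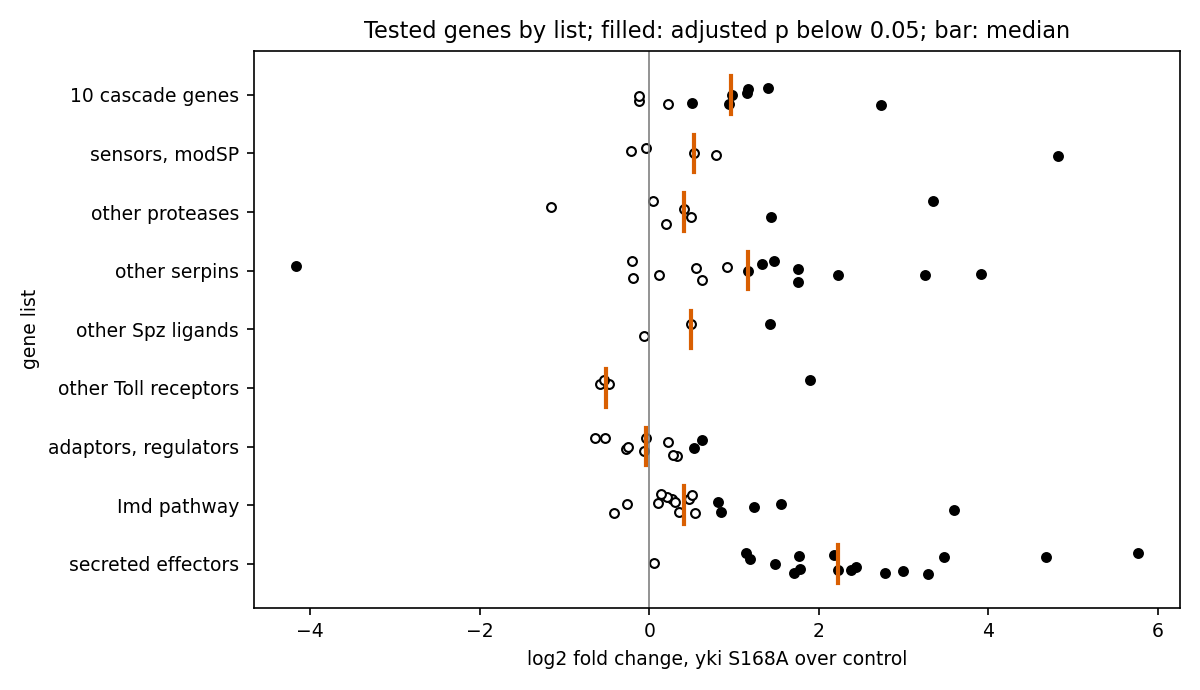
Log2 fold change, yki S168A over control, of each tested gene by list; filled points passed an adjusted p below 0.05 and orange bars are medians. Medians are 0.96 for the 10 genes, 2.23 for the secreted effectors and −0.04 for the adaptors and regulators.

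Calls among markers of other cell types varied by type, and over all tested genes 15.1% were higher and 12.5% lower. Of 14 fat body markers 10 were lower, 3 without control replicate 1 and 4 without control replicate 2. The 1 higher was Fbp1 (adjusted p = 0.0483), whose groups overlapped and whose call was lost with RLE or upper-quartile scaling, among other settings. The list had a summed level of 25242 and 15689 CPM in yki S168A heads, against 62115 and 72258 CPM in control heads. Most of that sum came from the yolk protein genes Yp1, Yp2 and Yp3, and the sex of the flies is not given. Yp2 alone was at 10531 and 6358 CPM in yki S168A heads, against 26094 and 32126 CPM in control heads. Of the 14 markers, 0 had no counts. Of 13 hemocyte markers 12 were tested, 4 were lower (2 when either control library was left out) and 2 higher; the log2 fold changes had a median of −0.50. Lower were Hml, PPO2, Pxn and Sr-CI. Higher were NimC4 (2.02-fold, edgeR adjusted p = 0.00101) and lz (1.95-fold, adjusted p = 0.0354). The hemocyte sum was 408 and 383 CPM in yki S168A heads, against 378 and 358 CPM in control heads. It was held up by crq (165 and 135 CPM in yki S168A heads, 138 and 111 CPM in control heads) and by NimC4. NimC4 was at 109.6 and 139 CPM in yki S168A heads, against 66.4 and 56.7 CPM in control heads. Neuron markers summed to 2475 and 3253 CPM in yki S168A heads, against 3925 and 4217 CPM in control heads (3 of 6 lower, 1 without control replicate 2, 2 without control replicate 1 or yki S168A replicate 1, and 5 without yki S168A replicate 2 or with upper-quartile scaling). Glia markers summed to 777 and 820.2 CPM in yki S168A heads, against 679 and 632 CPM in control heads (1 of 6 higher, median log2 fold change 0.03). The higher glia marker was moody, at 194 and 200 CPM in yki S168A heads against 39.6 and 39.3 CPM in control heads (edgeR adjusted p = 7.98e-07). The difference in the sum came mainly from moody, and the other 5 were not called. Midgut markers reached at most 6.43 CPM in sum, with betaTry at 0. Reproductive tissue markers reached at most 3.12 CPM, with aly at 0. The chorion gene Cp16 was the 1 of 8 tested and was called higher (edgeR adjusted p = 0.0117). It had 17 and 54 counts in yki S168A libraries against 0 and 0 in control libraries. Cp16 was not called when control replicate 1, control replicate 2 or yki S168A replicate 2 was left out. In RNA of whole heads, more cells of a type and more RNA per cell cannot be told apart, and the part of tissue makeup in these results was not tested.

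Within the yki S168A group, 8 of the 10 genes were higher in replicate 1 than in replicate 2, and dl and Dif were lower; in the control group 5 were higher and 5 lower in replicate 1. Fat body markers also summed higher in yki S168A replicate 1, mostly through Yp1, Yp2 and Yp3, and neuron markers summed lower. Some fat body markers went the other way, such as Fbp1, at 14.8 CPM in replicate 1 and 44.5 CPM in replicate 2. The part of this in the spread of the 10 genes was not tested.

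The profile of grass was the clearest of the 10 by p-value. Among 6682 other tested genes with a mean of at least 10 CPM, the nearest profiles over the 4 libraries, by root-mean-square distance of centred log2 CPM, were those of CG1299 (0.0414), CG42808 (0.0426) and CG9717 (0.0515). CG1299 had 340.1 and 309 CPM in yki S168A heads and 49.9 and 49.8 CPM in control heads. These distances rest on 4 libraries in 2 groups.

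By position, 5 of the 10 genes lie on chromosome 3R, 3 on 2L, 1 on 2R and 1 on X. Of the 18 nearest tested genes on either side that are not among the 10, 7 were higher and 1 lower. Over all tested genes 15.1% were higher and 12.5% lower, and the list of neighbors was drawn up after the data were seen. The nearest downstream of grass, at 1376 bases on the same strand, was CG5909, at 347 and 392 CPM in yki S168A heads against 0.742 and 0.246 CPM in control heads. The control libraries hold only 13 and 4 counts of it, and its log2 fold change of 9.50 ran from 8.94 without control replicate 2 to 10.51 without control replicate 1. On the other side of grass, 344 bases away, Men-b was at 186 ± 20.2 CPM in yki S168A heads and 188 ± 0.636 CPM in control heads (SD, n = 2 each, edgeR adjusted p = 0.948). Beside nec, Spn43Ad rose 2.50-fold (adjusted p = 0.00108). Whether neighboring genes share reads or regulation was not tested.

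**Figure D5:**
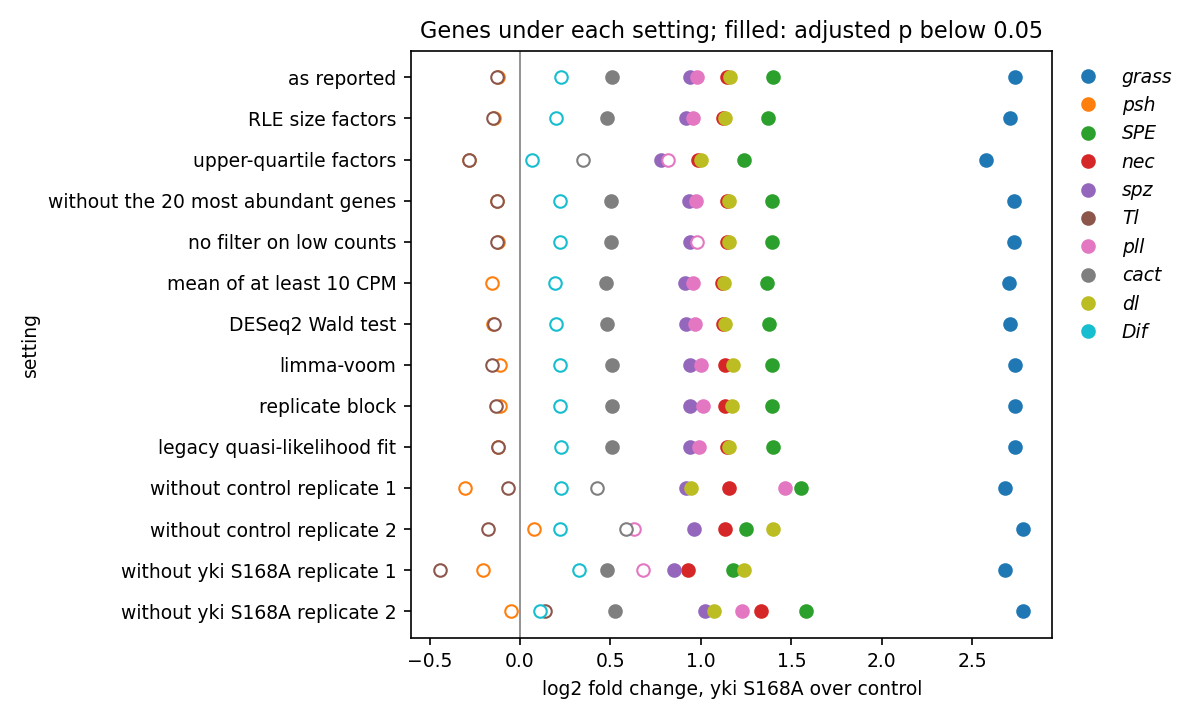
Log2 fold change, yki S168A over control, of the 10 genes in the reported fit and in each alternative; filled points passed an adjusted p below 0.05. Points of grass stay between 2.58 and 2.78, and those of cact and pll are open in some alternatives.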

How the data were processed

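Each library was made from RNA of 30 adult heads with a Lexogen SENSE mRNA kit, and the data were analyzed by a company, per the labels' protocols. What the authors deposited is 1 table per library of whole-number read counts by gene symbol, per the file headers. The submitters' processing notes name dm6 as the build. The aligner, counter, annotation, strand setting and treatment of multiply matching reads were each not given in the sources used here. Lines sharing a symbol (37 lines, 17 symbols, none of the 10 genes) were summed. Symbols were matched to the Ensembl release 115 annotation in dm6 coordinates (99.4% of symbols, all 10 genes) for positions, exonic lengths and overlaps.

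Counts were analyzed in edgeR 4.0.16 under R 4.3.3. Genes were kept by filterByExpr (10896 tested, 5593 not), libraries scaled by TMM, and groups compared by glmQLFTest after glmQLFit (legacy mode off), in a model of group alone, with Benjamini-Hochberg adjustment over all tested genes. The common biological variation (BCV) came to 20.7%, with a median of 11.2 total degrees of freedom. CPM are TMM-scaled, SDs are over 2 libraries, and SEs were obtained by dividing the size of the log2 fold change by the root of F. A count of 3 corresponds to 0.166 to 0.191 CPM before TMM scaling.

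The 10 genes and the gene lists were chosen with earlier results of these data known. Of each pathway list the 3 genes with the smallest p, and the one with the smallest p among those called the other way, were named. Alternatives were scaling by RLE or upper quartile, removal of the 20 most abundant genes, no filter, a minimum mean of 10 CPM, DESeq2 1.42.0, limma-voom (limma 3.58.1), an adjusted p of 0.01, a replicate block and leaving out each library; the legacy fit was added after seeing the data. Sequences were not used here, so a planned search of promoters for motifs was not run.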

Additional observations from a re-analysis of the deposited data

How the results depend on the processing

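The number called among the 10 genes was 7 in the reported fit and between 5 and 7 in the alternatives, 5 of them at an adjusted p below 0.01 and 5 with upper-quartile scaling, and it ran between 5 and 7 as each library was left out. Over all genes the count of 3006 ran from 1634 to 3123 as each library was left out, and 1691 passed an adjusted p below 0.01. Of 129 refits of single genes among the 10, 120 kept direction and side of the threshold, 7 lost the call and 2 changed sign. As each library was left out, the log2 fold change of psh ran from −0.31 to 0.080 and that of Tl from −0.44 to 0.14; the sign changed for psh without control replicate 2 and for Tl without yki S168A replicate 2, and neither gene was called under any setting tried. Among the other named genes, spz5 ran from −0.39 (without yki S168A replicate 2) to 1.01, and spz4 from −0.36 to 0.17 (without control replicate 2; 0.16 without yki S168A replicate 1). Dropping genes that average under 10 CPM removes Tl. The mean ratio of cact to dl plus Dif was 2.86 per kilobase of exon and 1.56 in plain counts in yki S168A heads, and 3.17 and 1.76 in control heads. Where calls changed, the cause was not tested.

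The titles number replicates 1 and 2 in both groups. With a replicate block, 7 of the 10 genes and 3626 of all genes were called, Toll-6 passed as lower (−0.49, adjusted p = 0.0267) and modSP as higher (0.52, adjusted p = 0.0314). Deviations of same-numbered libraries from their group means correlated at 0.0184 across genes. That value averages over all genes and cannot detect a pairing limited to some of them. Whether same-numbered libraries were paired was therefore not settled. Counts were 98 to 137 per library for Tl and 99 to 329 for pll. Labels name no molecular identifiers, so counting errors and floors cover counting error only.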
